A study of Mus musculus with 18 samples.

Results

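The 41 genes described here sense foreign RNA, relay that signal, or answer to interferon. They were chosen by symbol, for what each gene is known to do and with earlier results of these data known, and all 41 were found among the 37991 genes of the count tables. They were followed in 18 RNA sequencing libraries, 3 for each of 6 groups, made from total RNA of primary hepatocytes (cryopreserved and plateable) from male CD-1 mice, an outbred stock. One group received an siRNA against Ttr (siRNA). Another received the scrambled REVERSIR and another the TTR REVERSIR. In a pair of further groups the siRNA was combined with each REVERSIR (siRNA + scrambled REVERSIR, siRNA + TTR REVERSIR), and PBS was the control. No genotype, dose, time, animal number or animal age is given in the sources used here, and all groups carry the same cell label. The labels do not say whether replicates came from separate cultures or animals, so p-values measure the spread between libraries, which may be technical.

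Ttr encodes transthyretin, the thyroxine carrier secreted by the liver. A REVERSIR is a short synthetic oligonucleotide that pairs with the guide strand of an siRNA in order to block it. Double-stranded and foreign RNA is recognised in the cytosol by the helicases RIG-I and MDA5, which signal through MAVS, and in endosomes by Toll-like receptors. These routes activate IRF3 and IRF7, which switch on type I interferon genes. Secreted interferon then acts through the receptor IFNAR on a complex that holds STAT2 and IRF9 and binds interferon-stimulated response elements, which raises a large set of antiviral genes. Hepatocytes carry the helicases and the receptor, whereas Toll-like receptor 7 is best known from plasmacytoid dendritic cells and other immune cells.

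Library totals ran from 1755819 to 10145265 counts, and the 41 genes took 3316 to 5190 CPM (counts per 1000000, here of the raw totals). Mitochondrial ribosomal RNA made up 24.34% and 24.08% of PBS replicates 1 and 2, against 1.689% to 9.555% in the 15 treated libraries and 5.447% in PBS replicate 3. These 2 PBS libraries stand apart from the rest, so each call of the 41 genes against PBS is also given without them, and the part of this RNA in the results was not tested. Ttr averaged 243 ± 19.1 CPM (from here on after TMM scaling) with siRNA and 226 ± 0.69 with siRNA + scrambled REVERSIR, against 1111 ± 96.8 in PBS (SD, n = 3 each), so the targeted gene matched these labels. With siRNA + TTR REVERSIR it averaged 1054 ± 112 CPM.

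The 6 hepatocyte markers summed to between 43030 and 56250 CPM in every library, mostly Alb. Of markers of other cells, those of leukocytes in general summed to between 0.757 and 2.73 CPM, and the plasmacytoid dendritic cell marker Siglech, the B cell marker Cd79a and the natural killer cell marker Nkg7 had no count. The T cell marker Cd3e had 40 counts in 15 libraries, and lymphocyte markers averaged 0.37 to 0.54 CPM summed in the treated groups and 0.075 CPM with PBS. The 12 Kupffer cell and macrophage markers summed to 394 to 436 CPM with siRNA and 391.8 to 454 CPM with PBS, and to between 353 and 455 CPM over all groups. Cd68 (mean 317 CPM) and Cd14 (82.4 CPM), which are not limited to macrophages, made up most of that sum, while Clec4f averaged 4.26 CPM and Emr1 0.42 CPM. The 4 stellate cell markers summed to 84.8 to 100.5 CPM with siRNA and 91.5 to 102.7 CPM with siRNA + TTR REVERSIR. Both lay below the 104.3 to 116.2 CPM with PBS without overlap, and the sum was 99.2 to 121.4 CPM in the other 3 groups. Of all genes tested, 9.93% and 8.25% lay below PBS without overlap in these comparisons, in the same order. Reln averaged 103.8 CPM, against 0.68 for Lrat, 0.52 for Des and 0.17 for Col1a1, so the sum mostly follows Reln. Liver endothelium markers summed to between 40.9 and 62.5 CPM and cholangiocyte markers to between 4.92 and 9.08 CPM over all libraries. The part of these other cells in the results was not tested. In such bulk RNA, fewer cells of a type and less RNA per cell cannot be told apart.

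The genes were well expressed in all groups, PBS included. On the scale of CPM per kilobase of exon (RPKM), which allows genes to be compared with each other, 39 of the 41 averaged more than 1 and 32 more than 10 over the 18 libraries. In all, 18 of them lay above the 90th percentile of the 19981 genes with a count. Bst2, which tethers budding virions to the cell, had the highest mean level at 244 RPKM. Next came Rsad2 (181 RPKM), the radical SAM enzyme viperin, Isg15 (148 RPKM), a ubiquitin-like modifier, and Usp18 (117 RPKM), which removes ISG15 from proteins. At the other end, Mx1 averaged 1.08 RPKM, Oas2 0.172 RPKM and Tlr7 0.141 RPKM. The highest group mean was less than 1.5 times the lowest for 39 of the 41 genes, the exceptions being Tlr7 and Oas2 with 55 and 88 counts in all.

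**Figure D1:**
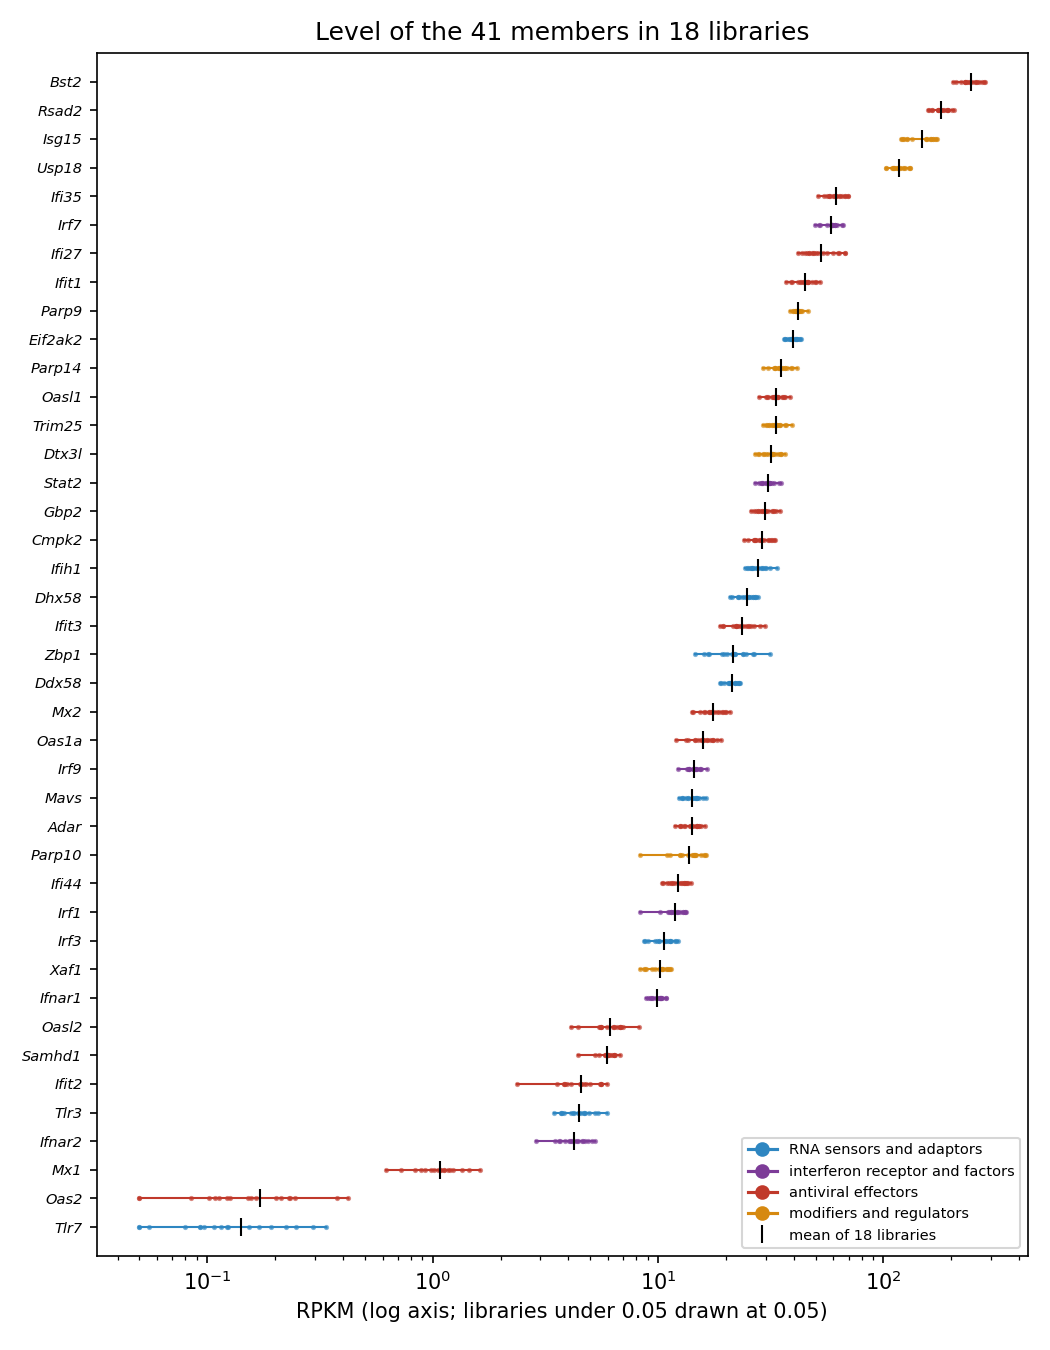
Level of each of the 41 genes in RPKM on a log axis, 1 point per library and a vertical tick at the mean of the 18 libraries, coloured by role. The levels span from 0.141 RPKM for Tlr7 to 244 RPKM for Bst2, and for most genes the 18 libraries lie close together.

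Of the 41, 39 passed the filter on low counts and were tested, and Tlr7 and Oas2 did not pass it. In the comparison of siRNA with PBS, 4 of the 39 rose and none fell at an adjusted p under 0.05 (edgeR quasi-likelihood test, Benjamini-Hochberg adjustment over 11153 genes), where 2.62% of all genes tested passed in either direction and 1.01% were higher. The 4 were Parp10, Isg15, Adar and Irf7, with log2 fold changes of 0.26 to 0.54. With TTR REVERSIR 1 of 39 passed, Parp10, which was higher (0.699% of all genes passed and 0.341% were higher), and with siRNA + scrambled REVERSIR 2 of 39, Parp10 and Isg15, both higher (0.61% of all genes passed and 0.206% were higher). None of 39 passed with scrambled REVERSIR (0.421% of all genes) or with siRNA + TTR REVERSIR (0.789% of all genes). Depth differed by group. The scrambled REVERSIR libraries had 2557229, 2896366 and 1755819 counts, against 4911099 to 8075490 with siRNA. The part of depth in the numbers of calls was not tested. At an unadjusted p under 0.05, 2 genes were higher and 1 lower with scrambled REVERSIR (7.12% and 7.55% of all genes), 8 higher and 1 lower with TTR REVERSIR (7.82% and 8.54%), and 6 higher and 2 lower with siRNA + TTR REVERSIR (8.14% and 9.56%). DESeq2 called 1 of the 39 genes, Parp10, both with scrambled REVERSIR (169 of all genes) and with siRNA + TTR REVERSIR (180 of all genes). All 5 comparisons share the same 3 PBS libraries and so are not independent of each other.

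The upper 95% bound of the fold change lay under 2-fold for all 39 genes in each of the 5 comparisons with PBS. The highest such bound for siRNA was that of Parp10, at 1.70-fold. The median log2 fold change of the 39 genes was 0.07 with siRNA, 0.04 with scrambled REVERSIR, 0.05 with TTR REVERSIR, 0.11 with siRNA + scrambled REVERSIR and 0.07 with siRNA + TTR REVERSIR, beside medians over all genes between −0.006 and 0.0029. With library totals in place of TMM scaling, the median over all genes for siRNA moved to 0.33 and that of the 39 to 0.38. At that scaling 26 of the 39 genes passed, all higher. Over all genes, 3819 were then higher and 25 lower, against 113 higher and 179 lower with TMM. Summed over the 41 genes, the level was 4557 ± 177 CPM with siRNA, 4474 ± 269 with scrambled REVERSIR, 4508 ± 79.3 with TTR REVERSIR, 4715 ± 164 with siRNA + scrambled REVERSIR and 4479 ± 249 with siRNA + TTR REVERSIR, against 4381 ± 77.2 CPM with PBS (SD, n = 3 each).

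**Figure D2:**
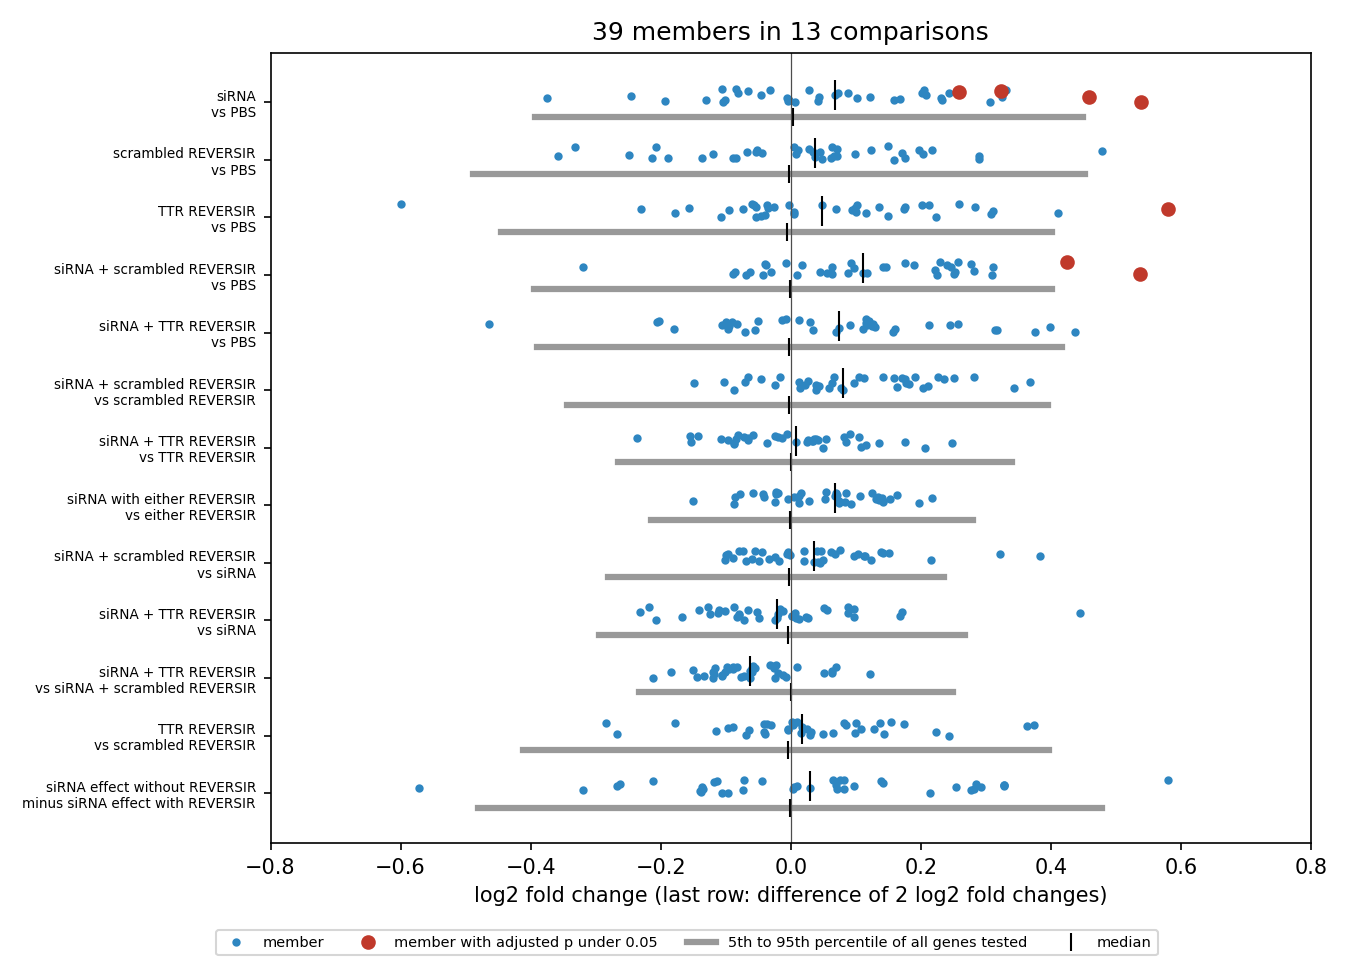
Log2 fold change of the 39 genes tested (points) in 12 comparisons, and in the last line the difference of 2 such changes, with genes past the threshold drawn larger in red. Grey bars run from the 5th to the 95th percentile of the 11153 genes tested and black ticks mark medians; most of the genes lie within the grey bars, and the 7 red points all belong to comparisons with PBS.

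None of the 8 sensors and adaptors tested passed in any comparison. Ifih1 encodes MDA5, the sensor of long double-stranded RNA. The level of Ifih1 was 153, 144 and 166 CPM with siRNA + TTR REVERSIR, 158, 141 and 173 CPM with siRNA + scrambled REVERSIR and 137, 134 and 160.4 CPM with siRNA. It was 139, 152 and 148 CPM with TTR REVERSIR and 144, 143 and 165 CPM with scrambled REVERSIR, against 186, 162 and 145 CPM with PBS. The highest value was that of PBS replicate 1, and siRNA overlapped PBS (log2 fold change −0.19 ± 0.09 SE, adjusted p = 0.239). Ddx58 encodes RIG-I, the sensor of short double-stranded RNA with a 5′ triphosphate. The level of Ddx58 was 147, 138 and 146 CPM with siRNA + TTR REVERSIR, 159, 133 and 146 CPM with siRNA + scrambled REVERSIR and 146, 149 and 160.2 CPM with siRNA. It was 154, 149 and 154 CPM with TTR REVERSIR and 162, 144 and 155 CPM with scrambled REVERSIR, against 161, 161 and 134 CPM with PBS. Every treated group overlapped PBS, and the difference of siRNA from PBS was −0.003 ± 0.08 on the log2 scale (adjusted p = 0.993). Dhx58 encodes LGP2, a relative of both that regulates them. The level of Dhx58 was 92.5, 71.7 and 88.8 CPM with siRNA + TTR REVERSIR, 87.1, 86.4 and 90.8 CPM with siRNA + scrambled REVERSIR and 96.1, 91.1 and 87.7 CPM with siRNA. It was 94.1, 77.8 and 92.9 CPM with TTR REVERSIR and 79.1, 81.3 and 84.3 CPM with scrambled REVERSIR, against 77.8, 73.2 and 82.95 CPM with PBS. All 3 siRNA libraries lay above all 3 PBS libraries, by 0.23 ± 0.09 on the log2 scale, which did not pass (adjusted p = 0.137).

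Mavs encodes the mitochondrial adaptor of both helicases. The level of Mavs was 42.6, 54.5 and 42.7 CPM with siRNA + TTR REVERSIR, 49.9, 47.1 and 47.9 CPM with siRNA + scrambled REVERSIR and 53.1, 49.7 and 45.6 CPM with siRNA. It was 50.9, 45.5 and 47.3 CPM with TTR REVERSIR and 49.2, 48.9 and 43.3 CPM with scrambled REVERSIR, against 49.4, 41.2 and 44.6 CPM with PBS. Every treated group overlapped PBS (siRNA against PBS 0.12 ± 0.10, adjusted p = 0.528). Eif2ak2 encodes PKR, the kinase that halts translation on binding double-stranded RNA. The level of Eif2ak2 was 190.4, 195 and 208 CPM with siRNA + TTR REVERSIR, 199, 201 and 219 CPM with siRNA + scrambled REVERSIR and 187, 197 and 208 CPM with siRNA. It was 199, 211 and 186 CPM with TTR REVERSIR and 186, 210.2 and 217 CPM with scrambled REVERSIR, against 209, 211 and 215 CPM with PBS. The siRNA libraries lay just below the PBS libraries without overlap, at a log2 fold change of −0.10 ± 0.07 (adjusted p = 0.425). Irf3 encodes the factor that MAVS signalling activates first. The level of Irf3 was 38.3, 32.2 and 35.9 CPM with siRNA + TTR REVERSIR, 34.1, 36.4 and 38.9 CPM with siRNA + scrambled REVERSIR and 31.6, 32.3 and 36.03 CPM with siRNA. It was 34.6, 30.9 and 28 CPM with TTR REVERSIR and 35.96, 35.2 and 28.7 CPM with scrambled REVERSIR, against 27.6, 34.02 and 37.8 CPM with PBS. Every treated group overlapped PBS, with PBS replicate 1 the lowest of the 18.

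Tlr3 encodes the endosomal receptor for double-stranded RNA. The level of Tlr3 was 20, 20.7 and 23.7 CPM with siRNA + TTR REVERSIR, 20.5, 18.4 and 23.1 CPM with siRNA + scrambled REVERSIR and 18.04, 16.5 and 21.8 CPM with siRNA. It was 19.6, 20.9 and 19.3 CPM with TTR REVERSIR and 15.1, 25.97 and 18.6 CPM with scrambled REVERSIR, against 16.3, 16.9 and 16.4 CPM with PBS. The PBS libraries were close together and low, and the libraries of TTR REVERSIR and of both groups that received siRNA with a REVERSIR lay above them without overlap. Of these differences the one for siRNA + TTR REVERSIR was the largest, at 0.38 ± 0.14 on the log2 scale, and did not pass (adjusted p = 0.177). Tlr7 encodes an endosomal receptor for single-stranded RNA that some siRNAs can also activate. It had 5, 2 and 4 counts with siRNA, 1, 4 and 0 with scrambled REVERSIR, 3, 2 and 5 with TTR REVERSIR, 5, 3 and 4 with siRNA + scrambled REVERSIR, and 6, 5 and 1 with siRNA + TTR REVERSIR, against 2, 1 and 2 with PBS. Such counts are too few for a comparison.

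Zbp1 encodes a sensor of Z-form nucleic acid that can trigger cell death. The level of Zbp1 was 58.96, 69.5 and 76.7 CPM with siRNA + TTR REVERSIR, 86.2, 67.6 and 71.4 CPM with siRNA + scrambled REVERSIR and 75.4, 77.8 and 83.8 CPM with siRNA. It was 51.4, 84.1 and 59.6 CPM with TTR REVERSIR and 56.4, 77.6 and 93.9 CPM with scrambled REVERSIR, against 111, 93.5 and 76.1 CPM with PBS. It varied between libraries from 51.4 to 110.9 CPM, and PBS had the highest group mean, at 93.5 ± 17.4 CPM against 65.1 to 79.0 CPM in the 5 treated groups. The largest difference was that of TTR REVERSIR, with a log2 fold change of −0.60 ± 0.16, where the libraries overlapped and the test was not passed (adjusted p = 0.0705).

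**Figure D3:**
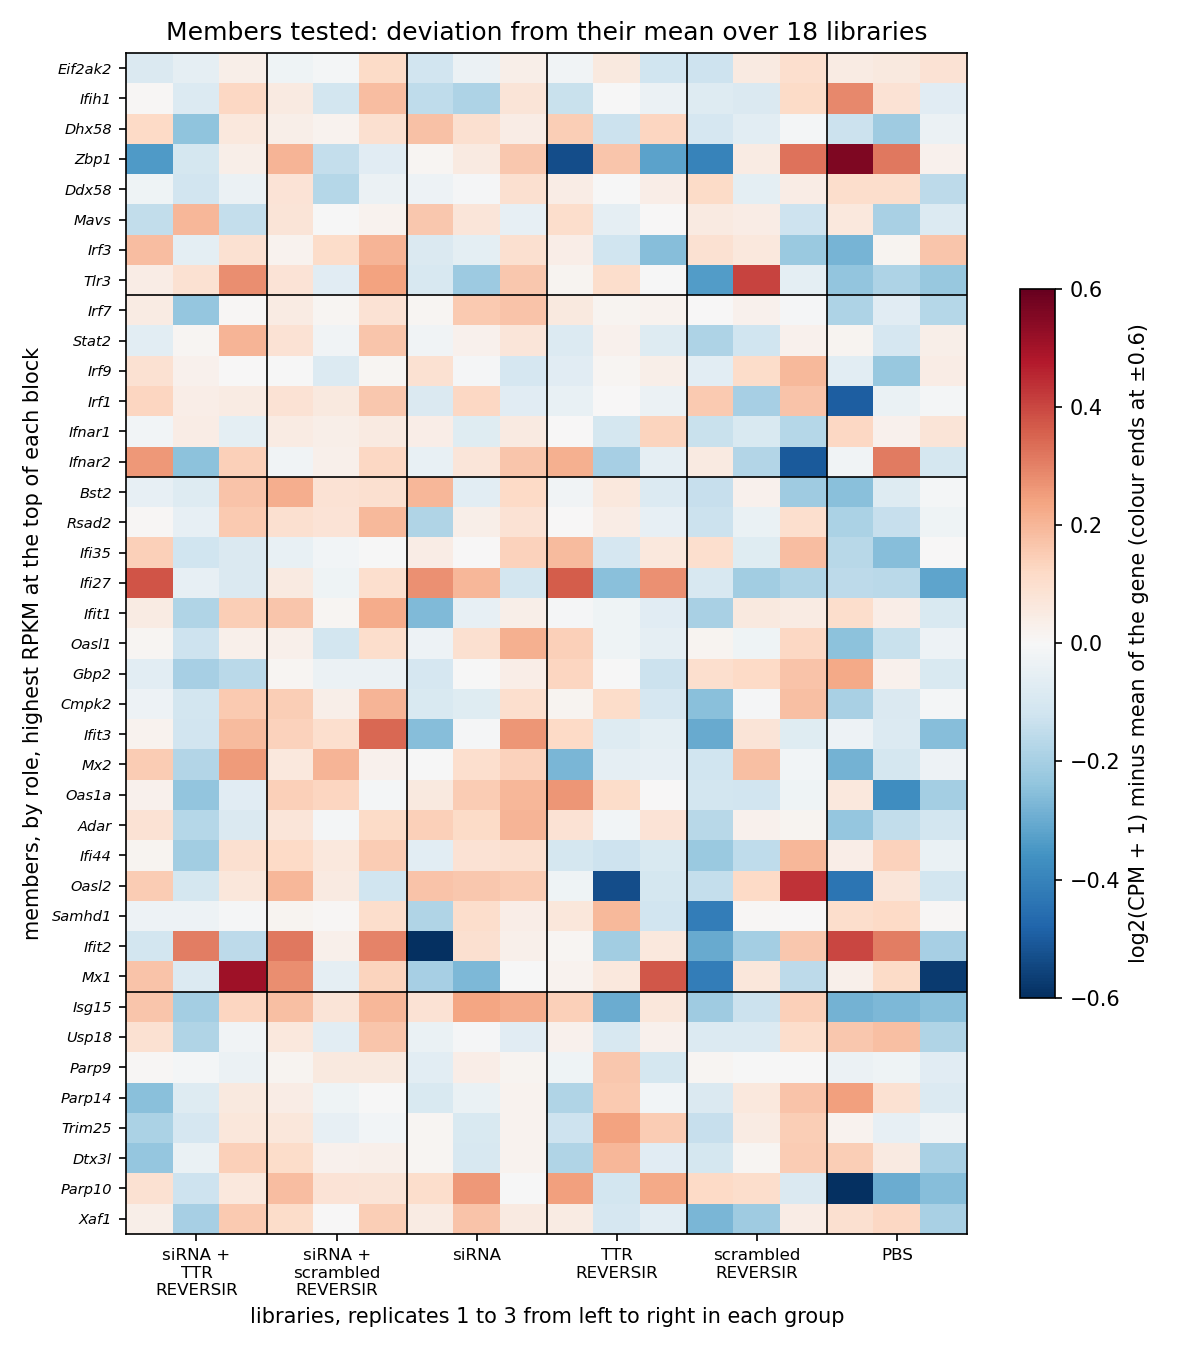
Deviation of each library from the mean of the gene over 18 libraries, on the log2(CPM + 1) scale, for the 39 genes tested, in blocks by role (sensors and adaptors, interferon receptor and factors, effectors, modifiers), 3 libraries per group. The low values of Isg15 and Parp10 in all 3 PBS libraries and the high value of Zbp1 in PBS replicate 1 stand out, while most genes show no block of colour that follows a group.

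Of the interferon receptor and its factors, Irf7 rose with siRNA and the other 5 did not pass in any comparison. Irf7 encodes the factor that amplifies type I interferon production and is itself induced by interferon; the gene lies on chromosome 7 (148448605 to 148452380, minus strand, NCBIM37). The level of Irf7 was 184, 151 and 178 CPM with siRNA + TTR REVERSIR, 183, 178 and 188 CPM with siRNA + scrambled REVERSIR and 178, 198 and 199.7 CPM with siRNA. It was 185, 179 and 179.6 CPM with TTR REVERSIR and 178, 180.4 and 176 CPM with scrambled REVERSIR, against 156, 169 and 157 CPM with PBS. The siRNA libraries lay above the PBS libraries without overlap, and so did those of scrambled REVERSIR, TTR REVERSIR and siRNA + scrambled REVERSIR. In all, 14 of the 15 treated libraries lay above every PBS library. The exception, siRNA + TTR REVERSIR replicate 2, was the lowest of all 18. The gene was picked by calls against these PBS libraries, and the share of all genes that do so was not counted. The log2 fold change of siRNA was 0.26 ± 0.07 (SE, 95% interval 0.12 to 0.40, adjusted p = 0.0449). Without PBS replicates 1 and 2 it was 0.30 (adjusted p = 0.961, with 1 PBS library left that is assumed to vary like the others). The call was lost without PBS replicate 1 (adjusted p = 0.279), PBS replicate 2 (0.102), or any of siRNA replicates 1 (0.0543), 2 (0.161) and 3 (0.138), and with the replicate number as a block (0.0574). Over all genes, 292 passed in the main fit and 248 with the block. Without PBS replicate 1 or 2 these were 1 and 2, and without siRNA replicate 1, 2 or 3 they were 62, 12 and 44. A call lost on leaving out a library is thus not particular to Irf7.

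Neither chain of the receptor passed. Ifnar1 encodes the first chain of the type I interferon receptor. The level of Ifnar1 was 57.6, 60.1 and 55.9 CPM with siRNA + TTR REVERSIR, 60.4, 59.7 and 60.6 CPM with siRNA + scrambled REVERSIR and 59.99, 55.4 and 60.6 CPM with siRNA. It was 58.4, 54.1 and 63.97 CPM with TTR REVERSIR and 52.99, 54.7 and 51.7 CPM with scrambled REVERSIR, against 63.7, 59.2 and 61.5 CPM with PBS. Scrambled REVERSIR lay below PBS without overlap, at −0.21 ± 0.08 on the log2 scale (adjusted p = 0.251), and the other groups overlapped PBS. Ifnar2 encodes the second chain, and shares 569 exon bases on the same strand with Il10rb, so that its counts are uncertain. The level of Ifnar2 was 19.8, 13.6 and 18.1 CPM with siRNA + TTR REVERSIR, 16.1, 16.7 and 17.9 CPM with siRNA + scrambled REVERSIR and 15.8, 17.3 and 18.5 CPM with siRNA. It was 19.1, 14.1 and 15.7 CPM with TTR REVERSIR and 17.03, 14.3 and 11.2 CPM with scrambled REVERSIR, against 16.1, 20.5 and 15.1 CPM with PBS. Its groups overlapped in every comparison with PBS.

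Stat2 and Irf9 encode subunits of the complex that binds interferon-stimulated response elements. The level of Stat2 was 129, 136 and 156 CPM with siRNA + TTR REVERSIR, 143, 133 and 152 CPM with siRNA + scrambled REVERSIR and 133, 138 and 142 CPM with siRNA. It was 128, 137 and 128 CPM with TTR REVERSIR and 118, 124 and 137 CPM with scrambled REVERSIR, against 136, 126 and 138 CPM with PBS. Every treated group overlapped PBS. The level of Irf9 was 82.7, 79.03 and 77.7 CPM with siRNA + TTR REVERSIR, 77.3, 73.3 and 78.1 CPM with siRNA + scrambled REVERSIR and 82.7, 77.2 and 72.3 CPM with siRNA. It was 74, 78.2 and 79.4 CPM with TTR REVERSIR and 74.2, 83.7 and 88.8 CPM with scrambled REVERSIR, against 74.2, 66.01 and 79.9 CPM with PBS. Irf9 overlapped PBS in every group as well, and neither gene passed (siRNA against PBS 0.04 ± 0.07, adjusted p = 0.794, for Stat2, and 0.07 ± 0.08, adjusted p = 0.657, for Irf9). Irf1 encodes a factor best known as a target of interferon gamma. The level of Irf1 was 51.2, 48.2 and 48.4 CPM with siRNA + TTR REVERSIR, 49.8, 48.8 and 52.4 CPM with siRNA + scrambled REVERSIR and 43.98, 51.05 and 44.6 CPM with siRNA. It was 45.4, 46.8 and 45.6 CPM with TTR REVERSIR and 52.2, 40.7 and 52.9 CPM with scrambled REVERSIR, against 32.9, 45.5 and 46.4 CPM with PBS. PBS replicate 1 was the lowest library, and both groups with siRNA and a REVERSIR lay above PBS without overlap, by 0.28 ± 0.10 for siRNA + scrambled REVERSIR (adjusted p = 0.162) and 0.26 ± 0.10 for siRNA + TTR REVERSIR (adjusted p = 0.203).

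Among the 17 effectors tested, Adar passed in the comparison of siRNA with PBS and no other effector passed in any comparison. Adar encodes the enzyme that edits adenosine to inosine in double-stranded RNA, which dampens MDA5 signalling; it lies on chromosome 3 (89518944 to 89557368, plus strand, NCBIM37). The level of Adar was 101, 84.5 and 89.6 CPM with siRNA + TTR REVERSIR, 100, 94.4 and 103 CPM with siRNA + scrambled REVERSIR and 105, 103 and 109.8 CPM with siRNA. It was 101, 94.1 and 101 CPM with TTR REVERSIR and 84.8, 97.05 and 96.1 CPM with scrambled REVERSIR, against 80.9, 85.8 and 88.2 CPM with PBS. The siRNA libraries lay above the PBS libraries without overlap, and so did those of TTR REVERSIR and of siRNA + scrambled REVERSIR. In all, 13 of the 15 treated libraries lay above every PBS library. The gene was picked by calls against these PBS libraries, and the share of all genes that do so was not counted. The log2 fold change of siRNA was 0.32 ± 0.07 (SE, 95% interval 0.17 to 0.48, adjusted p = 0.0249). Without PBS replicates 1 and 2 the change was 0.27 (adjusted p = 0.961). The call was lost without PBS replicate 1 (adjusted p = 0.197) or 2 (0.102) and without siRNA replicate 1 (0.0552), 2 (0.0762) or 3 (0.0864). Over all genes few passed in these same runs, as given for Irf7.

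With siRNA, 11 of the 17 effectors had a log2 fold change above 0 (50.6% of all genes), with a median of 0.16 and a range of −0.37 to 0.33, and 8 were higher and none lower at an unadjusted p under 0.05 (9.39% and 10.7% of all genes). With siRNA + scrambled REVERSIR, 15 of the 17 lay above 0 (49.6% of all genes), and in 7 of them all 3 libraries exceeded all 3 PBS libraries, where 9.55% of all genes tested did so. None of these passed the test. Rsad2 was among them, at 833, 824 and 891 CPM with siRNA + scrambled REVERSIR against 682, 709 and 765 CPM with PBS, a log2 fold change of 0.24 ± 0.08 (adjusted p = 0.118). In the authors' deposited DESeq2 table Rsad2 was called in that comparison (log2 fold change 0.216 ± 0.0682, adjusted p = 0.0350). The settings of that fit were not given, so its change may be scaled differently. Bst2, Mx2, which encodes a dynamin-like GTPase, Ifit3, Cmpk2, Ifi27 and Adar were the others. Over all 39 genes, 14 lay above PBS without overlap and none below with siRNA + scrambled REVERSIR (9.55% and 9.67% of all genes). At an unadjusted p under 0.05, 12 were higher and 1 lower (8.17% and 9.54% of all genes).

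With siRNA alone, 8 of the 39 lay above PBS without overlap and 1 below (9.51% and 9.93% of all genes), and 12 were higher and 1 lower at an unadjusted p under 0.05 (9.39% and 10.7%). These counts were 5 above and 2 below for scrambled REVERSIR (7.3% and 7.18% of all genes), 4 and 1 for TTR REVERSIR (5.66% and 6.38%), and 5 and 2 for siRNA + TTR REVERSIR (7.79% and 8.25%). Many of the genes also deviated together within single libraries: of the 39, 29 were lowest of 3 in siRNA + scrambled REVERSIR replicate 2 and 26 in siRNA + TTR REVERSIR replicate 2, with median deviations of −0.05 and −0.10 on the log2 scale from the group means. In siRNA replicate 1 and scrambled REVERSIR replicate 1, 23 each were lowest, at medians of −0.06 and −0.11. In siRNA replicate 3 and siRNA + scrambled REVERSIR replicate 3, 25 each were highest. The same was not counted over all genes.

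The modifiers held the gene with the most calls, Parp10, and Isg15. Isg15 encodes a ubiquitin-like protein that is attached to other proteins and is among the genes most readily induced by type I interferon; it lies on chromosome 4 (155573533 to 155574927, minus strand, NCBIM37). The level of Isg15 was 125, 96.4 and 122 CPM with siRNA + TTR REVERSIR, 126, 117 and 128 CPM with siRNA + scrambled REVERSIR and 118, 131 and 129.5 CPM with siRNA. It was 123, 90.05 and 116 CPM with TTR REVERSIR and 95.8, 102 and 123 CPM with scrambled REVERSIR, against 91.04, 91.9 and 93.03 CPM with PBS. The PBS libraries lay between 91.0 and 93.0 CPM, and 14 of the 15 treated libraries lay above them, the exception being TTR REVERSIR replicate 2. Only genes called against these same PBS libraries were looked at in this way, and the share of all genes was not counted. Isg15 rose by 0.46 ± 0.10 on the log2 scale with siRNA (SE, 95% interval 0.25 to 0.66, adjusted p = 0.0207), which is 1.37-fold, and by 0.42 ± 0.10 with siRNA + scrambled REVERSIR (0.22 to 0.63, adjusted p = 0.0451). The change was 0.32 ± 0.10 with siRNA + TTR REVERSIR (adjusted p = 0.0959), 0.28 ± 0.10 with TTR REVERSIR (0.170) and 0.20 ± 0.11 with scrambled REVERSIR (0.414), none of which passed. Without PBS replicates 1 and 2 the changes were 0.45 with siRNA (adjusted p = 0.961) and 0.41 with siRNA + scrambled REVERSIR (adjusted p = 0.9998).

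For siRNA the call of Isg15 was lost without PBS replicate 1 (adjusted p = 0.182) or 2 (0.102) and without siRNA replicate 2 (0.0849) or 3 (0.0641). For siRNA + scrambled REVERSIR it was lost without PBS replicate 1 (0.324) or 2 (0.172) and without any of the treated libraries 1 (0.0978), 2 (0.108) and 3 (0.149). Few of all genes passed in these runs, and for siRNA their numbers are given with Irf7. For siRNA + scrambled REVERSIR, 68 of all genes passed in the main fit. Without PBS replicate 1 or 2 these were 1 and 5, and without treated library 1, 2 or 3 they were 11, 1 and 3.

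The stretch upstream of the Isg15 start is shown because Isg15 is the member past the threshold in more than 1 comparison for which the RefSeq table (GRCm38.p6) holds a promoter; Parp10 is not in it. The window covers chr4:156200819-156201068 on the minus strand, the 250 bases before the start, and the capitals mark matches to GAAA, any 2 bases and GAAA, the core of the interferon-stimulated response element.
Isg15: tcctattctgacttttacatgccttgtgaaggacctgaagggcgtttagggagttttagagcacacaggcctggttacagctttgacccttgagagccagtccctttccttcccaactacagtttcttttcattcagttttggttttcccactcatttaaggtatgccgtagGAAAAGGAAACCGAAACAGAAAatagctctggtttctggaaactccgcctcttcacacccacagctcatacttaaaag
The core matched at 3 overlapping positions, which begin 66, 72 and 78 bases before the start. Both strands were searched. Of the 41 genes, 30 were matched in the table, and 8 of these (26.7%) held the core, as did 936 of all 27025 genes (3.46%) and 978 of all 32851 promoters (2.98%). The other 7 were Bst2, Gbp2, Ifit1, Ifit3, Oas1a, Rsad2 and Stat2, and stretches of 30 bases around 1 match each in Bst2, Ifit1, Rsad2 and Stat2 are shown beside their genes (capitals mark the core, which reads as TTTC, any 2 bases and TTTC where it lies on the other strand).
Bst2, chr8:71537577-71537606, minus strand: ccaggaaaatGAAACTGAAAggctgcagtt
Ifit1, chr19:34640794-34640823, plus strand: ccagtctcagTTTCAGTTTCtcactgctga
Rsad2, chr12:26456553-26456582, minus strand: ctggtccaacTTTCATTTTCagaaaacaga
Stat2, chr10:128270266-128270295, plus strand: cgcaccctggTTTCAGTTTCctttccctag
The windows of Irf7 (1) and Adar (3) held no match. The pattern TTCNNNGAA of the gamma-activated site was found in 7 of the 30 genes (23.3%) and in 8.13% of all genes, and in Bst2 a match of it overlaps a match of the core. A match describes these letters and is not a measured binding site, and no match says only that the letters are absent from this window.

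Parp10 encodes a mono-ADP-ribosyltransferase; it lies on chromosome 15 (76061604 to 76073871, minus strand, NCBIM37) and shares 205 exon bases, 4.80% of its exon length, with Plec on the same strand, so that a small part of its counts is uncertain. The level of Parp10 was 61.98, 53.2 and 60.7 CPM with siRNA + TTR REVERSIR, 66.2, 61.5 and 61.3 CPM with siRNA + scrambled REVERSIR and 62.6, 69.6 and 58.02 CPM with siRNA. It was 69.04, 53.7 and 68.1 CPM with TTR REVERSIR and 63.2, 62.5 and 54.5 CPM with scrambled REVERSIR, against 35.7, 47.1 and 48.4 CPM with PBS. All 15 treated libraries (53.2 to 69.6 CPM) lay above all 3 PBS libraries (35.7 to 48.4 CPM). As for Isg15, the gene was picked by calls against these PBS libraries, and the share of all genes that do so was not counted. The log2 fold change was 0.54 ± 0.11 with siRNA (SE, adjusted p = 0.0163), 0.58 ± 0.11 with TTR REVERSIR (0.0357) and 0.54 ± 0.11 with siRNA + scrambled REVERSIR (0.0194), the 3 comparisons it passed. It was 0.48 ± 0.12 with scrambled REVERSIR (adjusted p = 0.0778) and 0.44 ± 0.11 with siRNA + TTR REVERSIR (0.0527). In the authors' deposited tables Parp10 was called in all 5, at log2 fold changes of 0.328 with siRNA + TTR REVERSIR, 0.410 with siRNA + scrambled REVERSIR, 0.409 with siRNA, 0.438 with TTR REVERSIR and 0.357 with scrambled REVERSIR. The settings of that DESeq2 fit were not given, so the sizes of its changes may be scaled differently from those here.

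Without PBS replicates 1 and 2 the change of Parp10 was 0.39 with siRNA (adjusted p = 0.961), 0.43 with TTR REVERSIR (0.970) and 0.39 with siRNA + scrambled REVERSIR (0.9998). The call for siRNA was lost without PBS replicate 1 (0.182) or 2 (0.0907) and without siRNA replicate 2 (0.0849). For TTR REVERSIR it was lost without PBS replicate 1 (0.260) or 2 (0.162) and without treated replicate 1 (0.257) or 3 (0.164). Over all genes 78 passed in the main fit of TTR REVERSIR, and 1, 0, 0 and 1 in these runs. For siRNA + scrambled REVERSIR the call was lost without PBS replicate 1 (0.2995) or 2 (0.0832) and without any of the treated replicates 1 (0.0720), 2 (0.0842) and 3 (0.0727). Few of all genes passed in the runs of siRNA and of siRNA + scrambled REVERSIR as well, as given for Irf7 and Isg15. Without PBS replicate 3, scrambled REVERSIR (0.0114) and siRNA + TTR REVERSIR (0.00641) also passed for Parp10. There 749 and 1151 of all genes passed. The other 6 modifiers, among them Usp18, the ubiquitin ligase gene Trim25 and the pair Parp9 and Dtx3l, which share 458 exon bases on opposite strands so that their counts there are uncertain if strand was not used, passed in no comparison.

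**Figure D4:**
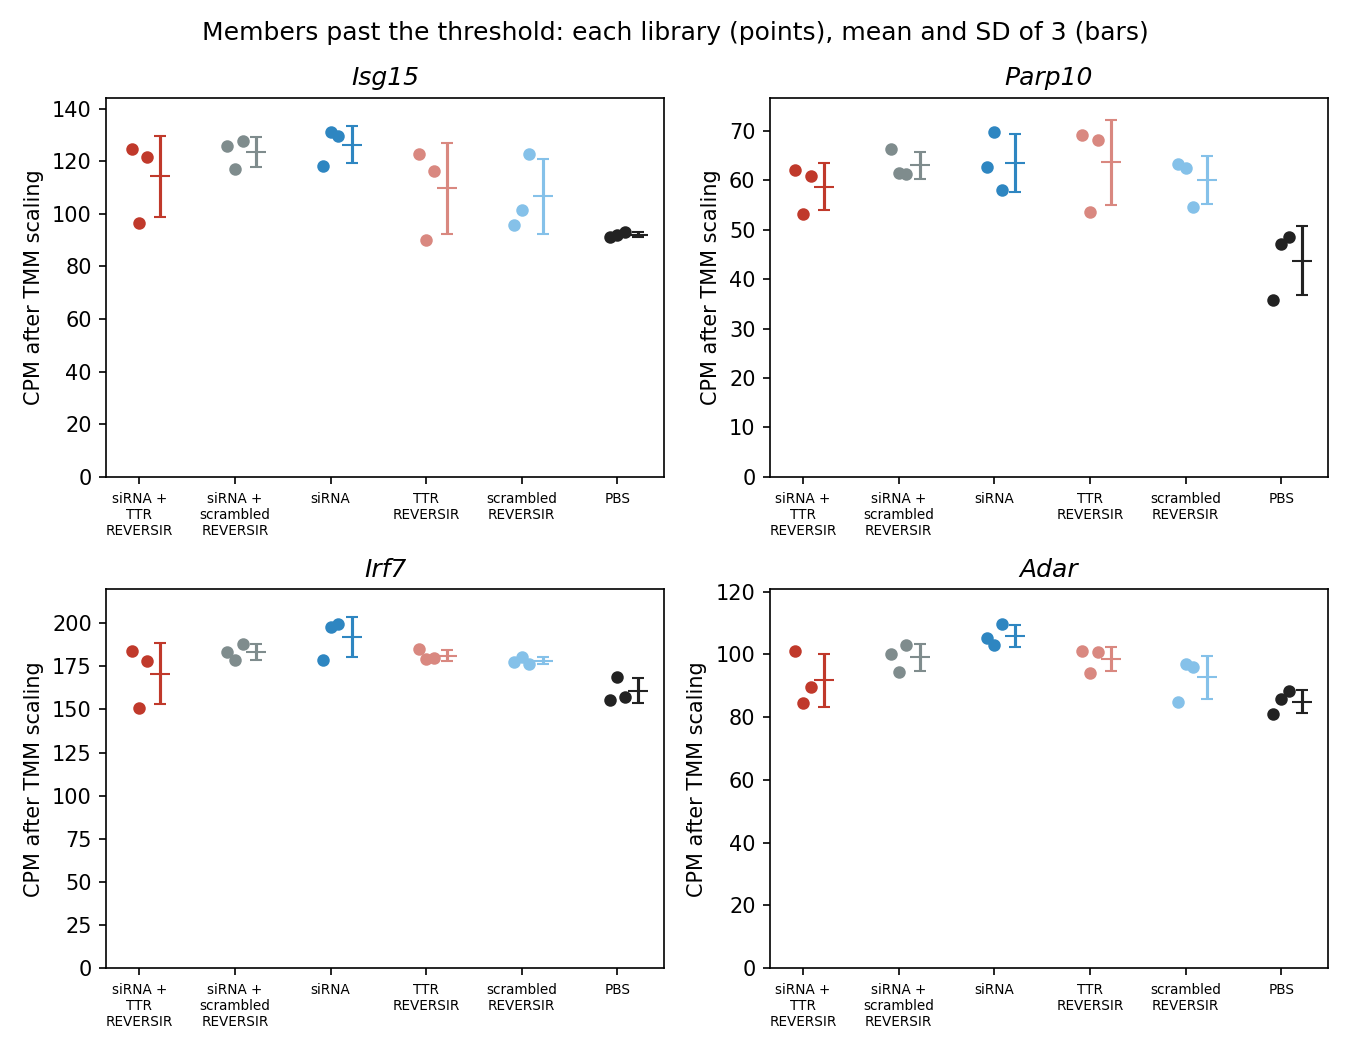
CPM after TMM scaling of the 4 genes past the threshold in any comparison, with 1 point per library, a bar for the mean and whiskers for the SD of 3 libraries, and the treated groups left of PBS. The 3 PBS libraries of Isg15 lie between 91.0 and 93.0 CPM, and Parp10 lies above every PBS library in all 15 treated libraries. The 4 genes were picked by calls against these PBS libraries.

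Comparisons that use no PBS library ask whether the siRNA, or the sequence of the REVERSIR, moved these genes against another treated group. In none of these 7 did any of the 39 genes pass, with edgeR or with DESeq2. For siRNA + scrambled REVERSIR against scrambled REVERSIR, 6 genes were higher and none lower at an unadjusted p under 0.05 (3.2% and 3.02% of all genes, while 0.0179% passed with adjustment), and the smallest p was that of Bst2. The level of Bst2 was 179, 176 and 209 CPM with siRNA + TTR REVERSIR, 216, 197 and 199 CPM with siRNA + scrambled REVERSIR and 214, 178 and 202 CPM with siRNA. It was 183, 194 and 175 CPM with TTR REVERSIR and 168, 189 and 160.2 CPM with scrambled REVERSIR, against 156, 176 and 184 CPM with PBS. The siRNA + scrambled REVERSIR libraries lay above those with scrambled REVERSIR without overlap, at a log2 fold change of 0.24 ± 0.09 (adjusted p = 0.741).

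For siRNA + TTR REVERSIR against TTR REVERSIR, 1 gene was higher and 1 lower at an unadjusted p under 0.05 (2.38% and 2.06% of all genes, while 0% passed with adjustment). The smallest p was that of Mx2. The level of Mx2 was 46.8, 37.1 and 50.5 CPM with siRNA + TTR REVERSIR, 43.96, 48.6 and 42.9 CPM with siRNA + scrambled REVERSIR and 41.95, 45.2 and 46.3 CPM with siRNA. It was 34.6, 40.5 and 40.6 CPM with TTR REVERSIR and 38.6, 47.8 and 41.6 CPM with scrambled REVERSIR, against 34.3, 38.98 and 41.1 CPM with PBS. The libraries compared overlapped (0.25 ± 0.11, adjusted p = 0.9998). Taking both REVERSIRs together, siRNA with either REVERSIR against either REVERSIR gave 2 genes higher and 1 lower at an unadjusted p under 0.05 (3.12% and 2.47% of all genes, while 0.00897% passed with adjustment), led by Stat2 (0.14 ± 0.05, adjusted p = 0.850). In that comparison of 6 libraries with 6, the log2 fold change was 0.13 ± 0.07 for Isg15 (95% interval −0.02 to 0.28), −0.04 ± 0.08 for Parp10 (−0.20 to 0.12), −0.02 ± 0.05 for Irf7 (−0.13 to 0.08) and −0.005 ± 0.05 for Adar (−0.12 to 0.11).

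Adding a REVERSIR to the siRNA did not give a call either. With siRNA + scrambled REVERSIR against siRNA, 2 genes were higher and none lower at an unadjusted p under 0.05 (1.68% and 2.04% of all genes, while 0% passed with adjustment). Ifit1, whose product binds RNA that lacks cap methylation, had the smallest p. The level of Ifit1 was 123, 104 and 131 CPM with siRNA + TTR REVERSIR, 133, 119.6 and 138 CPM with siRNA + scrambled REVERSIR and 98.5, 115 and 121 CPM with siRNA. It was 118, 116 and 113 CPM with TTR REVERSIR and 103, 123 and 123 CPM with scrambled REVERSIR, against 128, 122 and 111 CPM with PBS. The libraries compared overlapped (0.22 ± 0.09, adjusted p = 0.9998). With siRNA + TTR REVERSIR against siRNA, none was higher and 3 were lower at an unadjusted p under 0.05 (2.74% and 3.24% of all genes, while 0.00897% passed with adjustment), namely Adar, Irf7 and Oas1a. Adar had the smallest p, at 101, 84.5 and 89.6 CPM with siRNA + TTR REVERSIR against 105, 103 and 109.8 CPM with siRNA, which do not overlap (−0.21 ± 0.07, adjusted p = 0.689).

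The REVERSIRs differ in sequence, and 2 comparisons set one against the other. With the siRNA present (siRNA + TTR REVERSIR against siRNA + scrambled REVERSIR), none of the 39 genes reached an unadjusted p under 0.05 in either direction (1.24% of all genes were higher and 0.932% lower, while 0.00897% passed with adjustment), and the smallest p was that of Oas1a, which encodes an oligoadenylate synthetase. The level of Oas1a was 32.1, 26.6 and 29.99 CPM with siRNA + TTR REVERSIR, 34.95, 34.6 and 31.2 CPM with siRNA + scrambled REVERSIR and 32.8, 35.1 and 36.4 CPM with siRNA. It was 38.1, 34.1 and 31.6 CPM with TTR REVERSIR and 29.1, 29.1 and 30.9 CPM with scrambled REVERSIR, against 32.9, 24.1 and 27.2 CPM with PBS. The libraries compared overlapped (−0.18 ± 0.10, adjusted p = 0.9999). Oas1a has close copies in the genome, and its counts are uncertain. Here 6 of the 39 log2 fold changes lay above 0 (50.3% of all genes), and 3 genes did not overlap and were lower (4.59% of all genes). Within siRNA + TTR REVERSIR, 26 of the 39 were lowest in replicate 2, which was not counted over all genes. The differences were −0.11 for Isg15 (95% interval −0.30 to 0.08), −0.10 for Parp10 (−0.30 to 0.10), −0.10 for Irf7 (−0.24 to 0.04) and −0.11 for Adar (−0.25 to 0.04).

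Without siRNA (TTR REVERSIR against scrambled REVERSIR), 1 gene was higher and none lower at an unadjusted p under 0.05 (3.74% and 3.6% of all genes, while 0.0179% passed with adjustment). This was Ifi27, which encodes a small mitochondrial membrane protein. The level of Ifi27 was 99.5, 73.9 and 71.9 CPM with siRNA + TTR REVERSIR, 79.3, 75.1 and 82.1 CPM with siRNA + scrambled REVERSIR and 92.6, 88.05 and 70.9 CPM with siRNA. It was 98.8, 64.1 and 92.7 CPM with TTR REVERSIR and 71.5, 65.95 and 67.5 CPM with scrambled REVERSIR, against 68.4, 68.3 and 61.3 CPM with PBS. The libraries compared overlapped (0.36 ± 0.14, adjusted p = 0.580). The differences were 0.09 for Isg15 (95% interval −0.14 to 0.31), 0.10 for Parp10 (−0.14 to 0.35), 0.03 for Irf7 (−0.13 to 0.18) and 0.10 for Adar (−0.07 to 0.27). These intervals bound any difference between the oligonucleotides in the 4 genes and do not show that they act alike.

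Whether the siRNA effect against PBS differed from the siRNA effect with a REVERSIR present was tested as an interaction. No gene of the 39 passed (0.0359% of all genes did), while 7 were higher and 2 lower at an unadjusted p under 0.05 (7.3% and 7.67% of all genes). DESeq2 called 1, Parp10 (105 of all genes). The difference of log2 fold changes was 0.58 ± 0.13 for Parp10 (adjusted p = 0.0628), 0.33 ± 0.09 for Adar (0.108), 0.28 ± 0.09 for Irf7 (0.137) and 0.33 ± 0.12 for Isg15 (0.208). These genes were picked by their calls for siRNA against PBS, and the interaction contains that same difference. The choice therefore favoured positive values, which are not independent of those calls. Without PBS replicates 1 and 2 the difference for Parp10 was 0.43. Without PBS replicate 3, 3 of the 39 genes passed, and 751 of all genes did. Without TTR REVERSIR replicate 2, 1 of the 39 passed (114 of all genes). Without siRNA + TTR REVERSIR replicate 1, 2 of the 39 passed (98 of all genes).

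Other genes of the pathway were followed as a list of 76, of which 61 were tested. In the comparison of siRNA with PBS 3 of the 61 rose and none fell (2.62% of all genes passed, and 1.01% were higher), and 9 were higher and 3 lower at an unadjusted p under 0.05 (9.39% and 10.7% of all genes). In the other 12 comparisons none passed in edgeR, with 0 to 13 higher and 1 to 7 lower at an unadjusted p under 0.05 (1.24% to 8.17% and 0.932% to 9.56% of all genes). Against PBS, DESeq2 called Ikbke, Lgals9 and Myd88 with siRNA (3 higher), Lgals9 with siRNA + scrambled REVERSIR (1 higher), and Ifitm3, Ifngr2, Ikbke and Lgals9 with scrambled REVERSIR (3 higher and 1 lower). It also called Ikbke in the interaction and no gene of the list elsewhere. These genes were named after their values were seen. Over all genes tested, DESeq2 called 140 higher and 246 lower with siRNA and 55 and 107 with siRNA + scrambled REVERSIR. With scrambled REVERSIR it called 79 higher and 90 lower, and in the interaction 44 and 61. Myd88, the adaptor of most Toll-like receptors, was at 30.4, 30.4 and 29.1 CPM with siRNA against 16.5, 19.2 and 27.98 CPM with PBS, without overlap (0.52 ± 0.14, adjusted p = 0.0440). With TTR REVERSIR alone Myd88 was at 34.15, 28.2 and 28.73 CPM, also above PBS without overlap (5.66% of all genes). The remaining groups overlapped PBS. Ikbke, which encodes a kinase that can activate IRF3, was at 59.6, 79.9 and 79.1 CPM with siRNA and 50.8, 51.1 and 60.3 CPM with PBS, which overlap (0.44 ± 0.10, adjusted p = 0.0215). Scrambled REVERSIR, at 75.7, 73.47 and 69.15 CPM, lay above PBS without overlap (7.3% of all genes). So did siRNA + scrambled REVERSIR (9.55% of all genes) and siRNA + TTR REVERSIR (7.79%), while TTR REVERSIR overlapped PBS. Oas3, another oligoadenylate synthetase gene, was at 12.6, 19.2 and 17.8 CPM with siRNA and 8.73, 8.56 and 13.6 CPM with PBS, which also overlap (0.71 ± 0.18, adjusted p = 0.0365). With siRNA + scrambled REVERSIR, Oas3 was at 16.62, 16.04 and 17.54 CPM, above PBS without overlap (9.55% of all genes), and the remaining groups overlapped PBS. None of these 3 genes passed without PBS replicates 1 and 2, at 0.10 for Myd88 (adjusted p = 0.980), 0.29 for Ikbke (0.961) and 0.30 for Oas3 (0.962). Each call was also lost without PBS replicate 1 or 2 alone, and without siRNA replicate 2 or 3, and that of Myd88 without siRNA replicate 1 as well, at adjusted p of up to 0.345 for Myd88, 0.197 for Ikbke and 0.2803 for Oas3. Few of all genes passed in these runs, as given for Irf7. These alternatives for the 3 genes were chosen after their values were seen. In all 3 genes the PBS library nearest to the siRNA libraries was replicate 3, the one with the low share of mitochondrial ribosomal RNA; the part of that share in these differences was not tested.

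Few transcripts of the interferons themselves were counted. Of 18 type I and type III interferon genes searched, 16 had no count among the 101167821 counts of all libraries. A count of 0 allows a level of up to 0.0297 CPM of these counts, counting error only. This bound pools all 18 libraries, and the bound for a single group is higher. The counting tool was not given, so how reads that match several of these genes were counted is not known. If such reads were dropped, a count of 0 does not bound the level. Ifnb1 had 16 counts in 10 libraries and Ifnk 130 counts in 18 libraries. The chemokine gene Cxcl10, an interferon target, had 788 counts in all, while Tnf had 3 and Il6 had 2.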

How the data were processed

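RNA was sequenced from 18 libraries of total RNA in 6 groups of 3, and replicates were taken from the titles. The authors deposited whole-number counts per gene for each library and 5 tables of comparisons with PBS, which hold a base mean signal, a log2 fold change with its error, a Wald score, a p-value and an adjusted p-value. Reads were processed with STAR and DESeq2 on NCBIM37, per the submitters' processing notes; versions, the counting tool and its strand setting were not given in these sources. If strand was not used, reads of overlapping genes on opposite strands cannot be told apart. Depth was 1755819 to 10145265 counts per library, which limits low genes most.

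Genes were filtered with filterByExpr and scaled with TMM, and 1 edgeR (4.0.16, R 4.3.3) quasi-likelihood model over all 18 libraries gave 13 contrasts, with Benjamini-Hochberg adjustment over 11153 genes and a threshold of 0.05. Standard errors are the log2 fold change over the square root of F. RPKM used summed exon lengths of the NCBIM37 annotation. The fit was tested on simulated data. Alternatives were size factors of the RLE kind, library totals, DESeq2 (1.42.0), no filter, only the groups compared, a replicate block, and leaving out libraries. Every library's values are given for genes past the threshold, for sensors, adaptors, receptor and factor genes, and for the gene with the smallest p where none passed. Members and lists were chosen with earlier results of these data known.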

Additional observations from a re-analysis of the deposited data

How the results depend on the processing

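Counts are of the 39 genes past the threshold unless given over all genes, and the counts that did not move by more than 1.5 times are left out. With library totals alone the counts were 11 with scrambled REVERSIR, 20 with TTR REVERSIR and 26 with siRNA, each against PBS. They were 28 when scrambled REVERSIR was added to the siRNA and 26 when TTR REVERSIR was added, also against PBS, and 6 for the interaction. Over all genes they were 1580, 2883, 3844, 3557, 4089 and 475, in the same order. That scaling also moved the median of all genes in the siRNA comparison by 0.33 (log2), and the cause was not tested. With only the groups compared in the fit, which leaves fewer libraries, the counts of the 39 were 0 with siRNA, 0 with TTR REVERSIR and 1 with siRNA + scrambled REVERSIR (1, 0 and 7 over all genes). Without PBS replicates 1 and 2 together, which leaves 1 PBS library, they were 0, 0 and 0 for the same 3. DESeq2 gave 1 for scrambled REVERSIR, 1 for siRNA + TTR REVERSIR and 1 for the interaction (169, 180 and 105 over all genes). Without the filter they were 2 with scrambled REVERSIR, 4 with TTR REVERSIR, 4 with siRNA + scrambled REVERSIR, 4 with siRNA + TTR REVERSIR and 1 for the interaction. Over all genes with a count they were then 424, 498, 564, 585 and 377, in the same order. The cause was not tested. Leaving out 1 library at a time gave 0 to 1 with scrambled REVERSIR, 0 to 4 with TTR REVERSIR, 0 to 6 with siRNA, 0 to 5 when scrambled REVERSIR was added to it, 0 to 3 when TTR REVERSIR was added and 0 to 3 for the interaction, and 0 to 0 for the other 7 comparisons. The highest of these came without PBS replicate 3, or without TTR REVERSIR replicate 2 for TTR REVERSIR. Over all genes, the siRNA count was 292 and ran from 1 to 1365 when 1 library was left out. In the same runs the all-gene counts were 0 to 749 with scrambled REVERSIR and 0 to 978 with TTR REVERSIR. They were 1 to 1142 with siRNA + scrambled REVERSIR, 0 to 1151 with siRNA + TTR REVERSIR and 1 to 751 for the interaction. Of 270 values of single genes under alternatives, the called pathway genes included, 0 reversed, 66 lost the call and 14 gained one. Genes with no call in the main fit could not lose one, so the 66 are not a share of all 270. For each called gene and comparison, 5 to 8 of 13 alternatives kept the call. Libraries with the same replicate number did not deviate together (median r = −0.013 over 45 pairs, against 0.0011 over 90 pairs with different numbers, and 7 of 18 libraries correlated best with their own number), so the numbers are not taken as pairs. With the replicate block the counts were 3 with siRNA, 1 with TTR REVERSIR, 2 with siRNA + scrambled REVERSIR and 0 in the others.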
